A study of Mus musculus with 6 samples.

Results

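Troponin and tropomyosin are the calcium switch of the muscle thin filament, and their 9 skeletal genes were followed in gastrocnemius muscle of old mice. The genes were taken by symbol: the slow troponins Tnnt1, Tnni1 and Tnnc1, the fast troponins Tnnt3, Tnni2 and Tnnc2, and the tropomyosins Tpm1, Tpm2 and Tpm3. All 9 were found among the 23282 rows of each count table, and all 9 passed the filter on low counts that left 11700 genes. The 6 mice were male, wild type, of strain C57/BL6J and 20 months old. The 3 mice of the inotodiol group were dosed by mouth with inotodiol, a triterpene found in chaga mushroom, at 0.35 mg/kg daily for 10 weeks. The 3 mice of the vehicle group received the carrier, which the labels give as saline (0.9%) with Tween 80 (5%) and polyethylene glycol (40%). The samples are labelled as biological replicates; whether the stated age is that at the start or the end of dosing is not given in the sources used here.

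In a resting fibre, tropomyosin lies along the actin filament and blocks the sites that myosin heads bind. Calcium released by a nerve impulse binds troponin C, which draws the inhibitory subunit troponin I off actin; troponin T ties both to tropomyosin, which then moves and lets myosin attach. Fast-twitch and slow-twitch fibres build this switch from different genes, so the balance of fast and slow troponin transcripts follows the fibre types of a muscle. Mouse gastrocnemius is made mostly of fast fibres. Tpm1 encodes the alpha tropomyosin of fast fibres, Tpm3 that of slow fibres, and Tpm2 encodes beta tropomyosin, found in both.

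Libraries held from 8961893 to 9953764 counts, of which the 9 genes took 6.04% to 6.79%. The deposited values are reads counted per gene, given here as CPM, counts relative to a library size scaled with TMM, a method that adjusts library totals for composition. The ribosomal RNA precursor Rn45s took 3.97% to 6.82% of the counts in vehicle and 4.33% to 10.2% in inotodiol libraries. The labelled tissue was checked on its markers: the 8 genes of the muscle list, among them Ckm, Acta1 and Myh4, summed to 149335 to 168927 unscaled CPM. In bulk muscle, fewer fibres of a type and less RNA per fibre cannot be told apart.

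No difference between inotodiol and vehicle passed edgeR's quasi-likelihood test for any of the 9 genes, with Benjamini-Hochberg adjustment at 0.05 and adjusted p from 0.96 to 0.998. The share called among all 11700 genes was 0% as well, although 570 genes had an unadjusted p under 0.05 and DESeq2 called 1 gene. Tpm1 was the 1 member with an unadjusted p under 0.05, against 4.87% of all genes. It was also the 1 member whose groups did not overlap, against 10.4% of all genes in either direction and 5.15% with inotodiol higher. Of the 9 genes, 6 had a log2 fold change above 0, against 49.9% of all genes, and their median was 0.021, against -0.00073 over all genes. On library totals without TMM, 3 of the 9 lay above 0, with a median of -0.098, against -0.12 over all genes. On the log2 scale Tpm3 had the widest 95% interval, from a fold of 0.654 to 1.10, and the narrowest were those of Tnnc2 and Tnni2, from 0.878 to 1.17 and from 0.907 to 1.22.

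**Figure D1:**
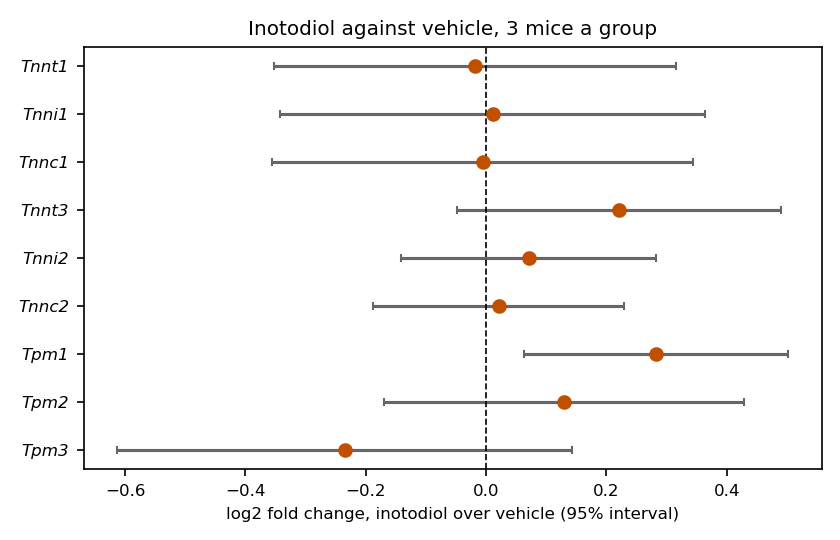
Log2 fold change of each gene, inotodiol over vehicle, with its 95% interval from the edgeR fit (3 mice a group). Tpm1 is the 1 gene whose interval, 0.06 to 0.50, excludes 0 before adjustment; its adjusted p was 0.96.

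Fast isoforms made up nearly the whole troponin pool, as levels per kilobase of transcript show. Over the 6 libraries Tnnc2 stood at 24614 ± 964 CPM per kilobase (SD, n = 6), Tnni2 at 18152 ± 887, Tpm1 at 10745 ± 1309 and Tnnt3 at 10458 ± 1459. Far below them, Tpm2 stood at 599 ± 82.4 CPM per kilobase, Tnnt1 at 358 ± 51.5, Tnnc1 at 327 ± 51.6, Tnni1 at 116 ± 16.9 and Tpm3 at 104 ± 22.7. Among neighbours in this order, Tpm1 and Tnnt3 exchanged places between libraries, with Tpm1 above in 3 of 6. The ranges of Tnnt1 and Tnnc1 overlapped too, with Tnnt1 above in 5 of 6, as did those of Tnni1 and Tpm3, with Tnni1 above in 5 of 6. All other neighbours were apart in all 6 libraries. Among the 11269 tested genes matched to a transcript length, Tnnc2 held rank 2, Tnni2 rank 3, Tpm1 rank 7 and Tnnt3 rank 8. Whether these counts rise with transcript length was not settled, so the order is given per length as a description.

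Troponin C, the calcium sensor, is encoded by Tnnc1 in slow fibres (GRCm38, chromosome 14, 31208312 to 31211729) and by Tnnc2 in fast fibres (chromosome 2, 164777161 to 164779967). The coding sequences of the pair are 68.1% identical over 479 aligned bases, and their longest identical run is 21 bases, so reads can be told apart. Their most similar 90 coding bases are given from the GENCODE M21 transcripts, with the 21 differing bases in capitals, because the slow and fast counts compared here rest on such differences.
Tnnc1, coding bases 385 to 474: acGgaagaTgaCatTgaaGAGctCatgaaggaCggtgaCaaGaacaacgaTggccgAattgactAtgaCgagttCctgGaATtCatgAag
Tnnc2, coding bases 382 to 471: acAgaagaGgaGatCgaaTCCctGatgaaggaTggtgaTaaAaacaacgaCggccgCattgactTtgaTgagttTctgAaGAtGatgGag

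Tnnc2 was the steadiest of the 9 genes. Vehicle libraries 1 to 3 had 17010 CPM, 17390 CPM and 16908 CPM, and inotodiol libraries 1 to 3 had 17098 CPM, 18474 CPM and 16499 CPM. The groups overlapped, with a log2 fold change of 0.02 ± 0.10 (SE). Its standard deviation over all 6 libraries, 0.056 on the log2 scale, was smaller than that of all but 0.248% of the genes tested. When CPM were computed from library totals alone, the median of all genes moved to -0.12 on the log2 scale, and Tnnc2 then stood at -0.098, close to that shift. On that scale its 3 inotodiol values (15831, 17159 and 16877 unscaled CPM) all lay below its 3 vehicle values (18021, 17429 and 17936). How many of all genes did so on that scale was not counted.

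Slow Tnnc1 had 237 CPM, 284 CPM and 187 CPM in vehicle libraries 1 to 3 and 229.9 CPM, 271 CPM and 204 CPM in inotodiol libraries 1 to 3. Vehicle 2 and inotodiol 2 were the high libraries and vehicle 3 was the lowest, and the groups overlapped. The log2 fold change was -0.01 ± 0.16, with a 95% interval from -0.36 to 0.34.

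Troponin I, the inhibitory subunit, is encoded by Tnni1 in slow fibres (chromosome 1, 135779434 to 135810989) and by Tnni2 in fast fibres (chromosome 7, 142441808 to 142444410). Tnni1 had 134 CPM, 163 CPM and 102 CPM in vehicle libraries 1 to 3 and 137 CPM, 128 CPM and 136 CPM in inotodiol libraries 1 to 3. All inotodiol values thus fell inside the vehicle range, and the means were 133 ± 30.3 CPM and 134 ± 4.77 CPM (SD, n = 3). The log2 fold change was 0.01 ± 0.16 (95% interval -0.34 to 0.36).

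Fast Tnni2 had 13643 CPM, 12954 CPM and 14199 CPM in vehicle and 14887 CPM, 14363 CPM and 13597 CPM in inotodiol libraries 1 to 3. The highest 2 values were inotodiol 1 and 2, but inotodiol 3 lay below vehicle 1, and the log2 fold change was 0.07 ± 0.10. With library totals it was -0.051, where the median of all genes was -0.12, so the side of 0 on which Tnni2 fell depended on the scaling.

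Troponin T, which anchors the complex to tropomyosin, is encoded by Tnnt1 in slow fibres (chromosome 7, 4504570 to 4516382) and by Tnnt3 in fast fibres (chromosome 7, 142498836 to 142516009). Both are heavily spliced, with 13 and 27 annotated transcripts in GENCODE M21, and counts per gene do not separate these forms. Tnnt1 had 400.2 CPM, 424 CPM and 285 CPM in vehicle libraries 1 to 3 and 378 CPM, 322 CPM and 394 CPM in inotodiol libraries 1 to 3. Vehicle mice held both the highest and the lowest value, and the log2 fold change was -0.02 ± 0.16.

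Tnnt3 was the fast troponin with the largest fold change. Vehicle libraries 1 to 3 had 10394 CPM, 8312 CPM and 10473 CPM, and inotodiol libraries 1 to 3 had 11671 CPM, 9800.1 CPM and 12535 CPM. Vehicle 2 was low and inotodiol 1 and 3 lay above all vehicle values, but inotodiol 2 fell below vehicle 1 and 3. The log2 fold change was 0.22 ± 0.13 (95% interval -0.05 to 0.49), with an unadjusted p of 0.10 and an adjusted p of 0.96 in edgeR. It ranged from 0.10 with library totals to 0.32 over the alternatives, with 0.13 without vehicle replicate 2 and 0.14 without inotodiol replicate 3, and 2 of 15 of these gave an unadjusted p under 0.05.

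**Figure D2:**
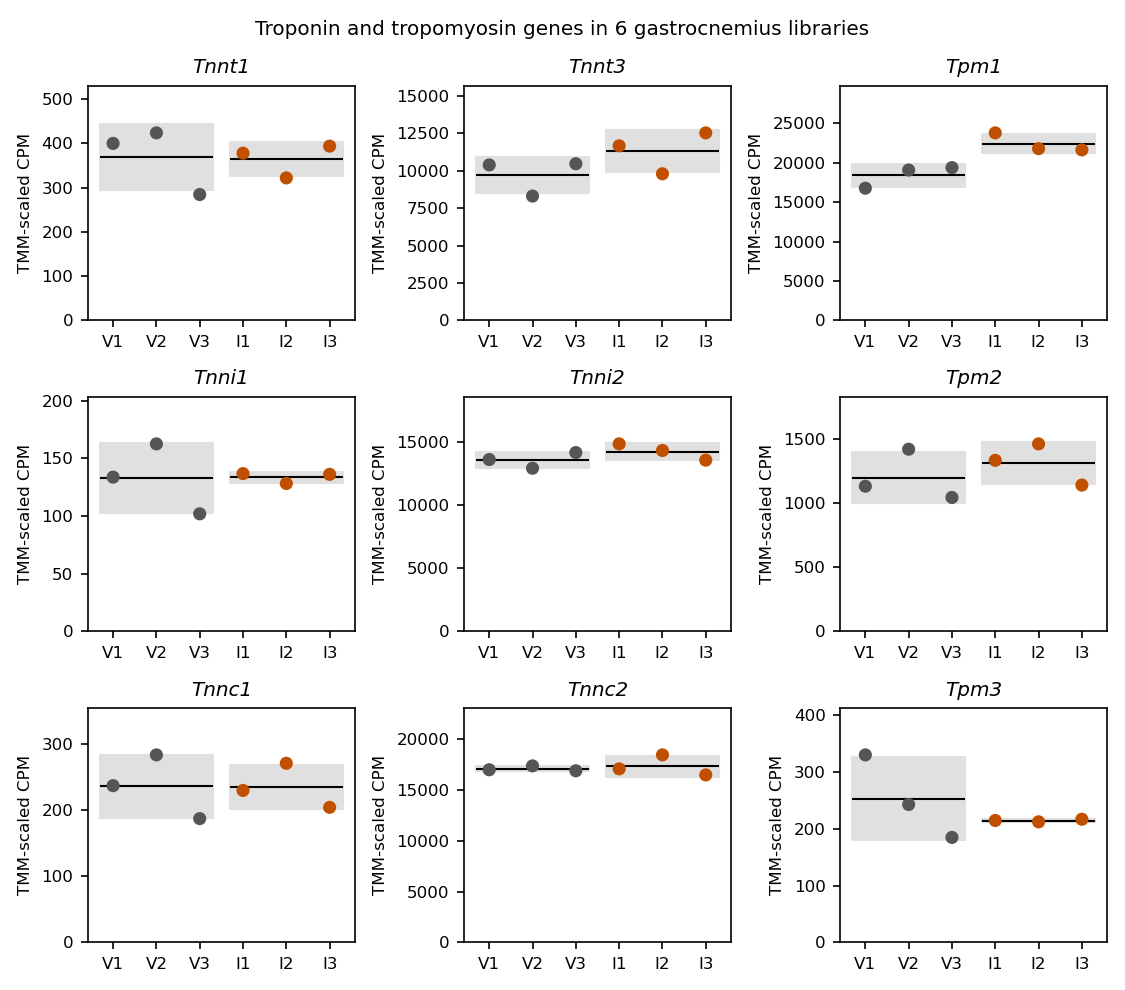
TMM-scaled CPM of each gene in the 3 vehicle (V1 to V3, grey) and 3 inotodiol libraries (I1 to I3, orange); lines are group means and shaded bands 1 SD either side. Groups overlap for 8 genes, and for Tpm1 the inotodiol values lie above the vehicle values.

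The ratio of slow to fast counts within a library does not depend on scaling, and it varied among vehicle mice more than between groups. Slow genes took 1.84%, 2.20% and 1.36% of the counts of the 6 troponin genes in vehicle mice 1 to 3 and 1.68%, 1.66% and 1.69% in inotodiol mice 1 to 3. Exact 95% binomial intervals, which cover counting error only, were 2.15% to 2.25% for vehicle 2, 1.33% to 1.40% for vehicle 3 and 1.62% to 1.70% for inotodiol 2. Such intervals leave out the differences between animals and so give no test. Means were 1.80 ± 0.42% and 1.68 ± 0.015% (SD, n = 3), a difference of -0.12 percentage points that is within the vehicle spread. Without vehicle replicate 2 the difference was 0.076, and without vehicle replicate 3 it was -0.34.

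Each subunit ordered the vehicle mice the same way. Slow Tnnt1 took 3.71%, 4.85% and 2.65% of the troponin T counts in vehicle 1 to 3 and 3.14%, 3.18% and 3.05% in inotodiol 1 to 3. For troponin I the slow share was 0.97%, 1.24% and 0.71% in vehicle and 0.91%, 0.89% and 0.99% in inotodiol libraries. For troponin C it was 1.38%, 1.61% and 1.10%, and 1.33%, 1.45% and 1.22%. Inotodiol mice differed too within subunits: for troponin C the interval of inotodiol 2 began at 1.39%, above those of inotodiol 1 and 3, which ended at 1.38% and 1.28%. For troponin I the interval of inotodiol 3 began at 0.939%, just above the end of that of inotodiol 2 at 0.937%. Vehicle 2 thus had the highest and vehicle 3 the lowest slow share of all 6 mice in all 3 subunits, and all inotodiol mice lay between them. In counts, fast Tnnt3 exceeded slow Tnnt1 by 19.6-fold to 36.8-fold, Tnni2 exceeded Tnni1 by 79.7-fold to 139-fold, and Tnnc2 exceeded Tnnc1 by 61.3-fold to 90.3-fold.

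**Figure D3:**
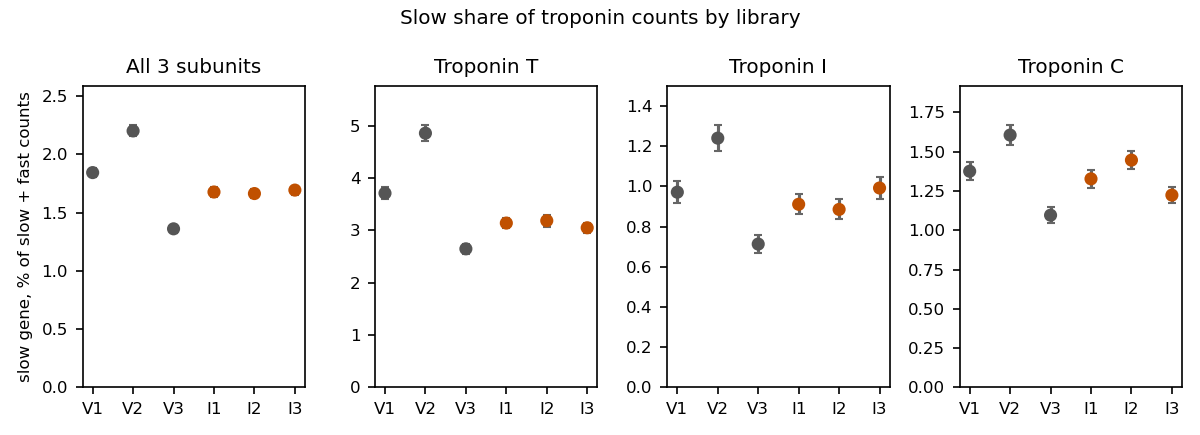
Slow share of slow plus fast troponin counts in each library, for all 3 subunits and for each one, with exact 95% binomial intervals (counting error only); vehicle V1 to V3 in grey and inotodiol I1 to I3 in orange. In each panel V2 is highest and V3 lowest, and the inotodiol mice lie between them.

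The 3 slow troponin genes moved together in the vehicle mice. On the log2 scale they lay 0.22 to 0.30 above their own means in vehicle 2 and 0.32 to 0.37 below in vehicle 3. Among inotodiol mice they did not share a direction: in inotodiol 2, Tnnc1 lay 0.22 above its mean and Tnnt1 lay at -0.17. On the log2 scale, SD within the vehicle group exceeded SD within the inotodiol group for 8 of the 9 genes, Tnnc2 being the exception. The same held for 41.3% of the 1230 genes at 100 CPM or more on average. Of the 8, Tnni2 (0.0664 in vehicle, 0.0659 in inotodiol) and Tnnt3 (0.189 and 0.183) had nearly equal SDs. In CPM the inotodiol SD was the larger for Tnnt3 (1398 against 1226), Tnni2 (649 against 624) and Tnnc2 (1013 against 254). The count of 8 was made after the values had been seen, and the 9 genes are not independent of one another. Moreover, 3 mice give a poor estimate of spread, and the difference in spread was not tested.

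The profile most like that of the slow troponins was sought among 4622 other genes averaging 20 CPM or more. Likeness was the SD over the 6 libraries of the log2 difference from the mean of Tnnt1, Tnni1 and Tnnc1. The closest were Usp5 at 0.074, Pkp4 at 0.078, Rbm33 at 0.080, Akap1 at 0.083, G3bp1 at 0.084 and Ahsa2 at 0.085, against a median of 0.279. With 6 libraries and 4622 genes ranked, this order is a description. A gene at the same level in all libraries would score 0.198, the SD of the slow profile itself, and 14.2% of the genes ranked lay closer than that. Of the 14 slow-fibre genes ranked, 5 lay closer than a flat gene: the slow myosin heavy chain gene Myh7 at 0.13, with 92 genes closer, the slow light chain gene Myl3 at 0.13, with 98 closer, Casq2 at 0.16, Myoz2 at 0.16 and Atp2a2 at 0.17. The slow light chain gene Myl2 at 0.35, Ankrd2 at 0.50 and Csrp3 at 0.65 were among the 7 beyond the median. In other lists, 4 of 10 muscle splicing regulators, 2 of 18 fibre type regulators and 1 of 16 fast-fibre genes lay closer than a flat gene. Closer than the median lay 7, 10 and 11 of these, so nearness was not particular to slow-fibre genes. Of the fast members, the steady Tnnc2 stood at 0.19, about where a flat gene would, Tnni2 at 0.24 and Tnnt3 at 0.34.

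**Figure D4:**
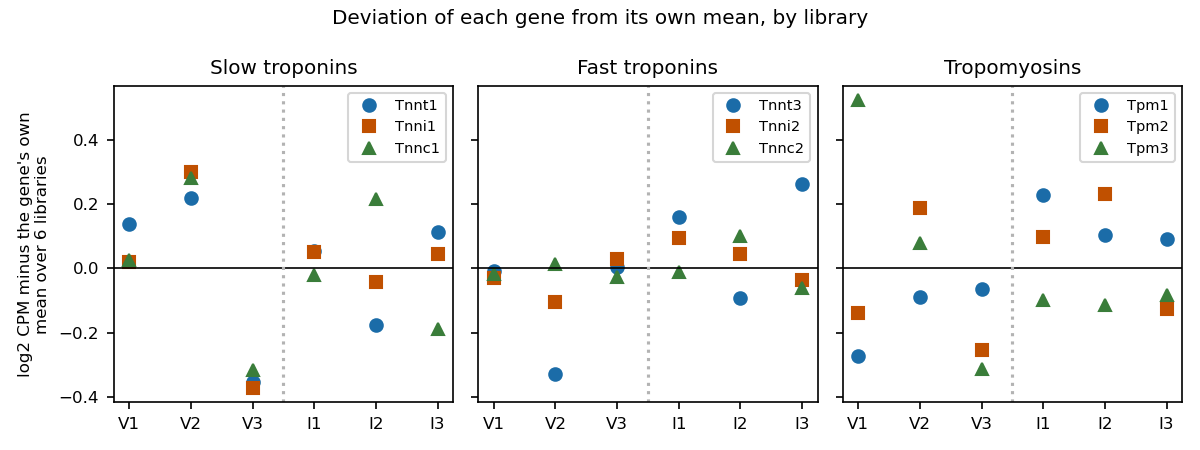
Deviation of each gene's log2 CPM from its own mean over the 6 libraries, for slow troponins, fast troponins and tropomyosins; V1 to V3 are vehicle and I1 to I3 inotodiol mice. Slow troponins are all high in V2 and all low in V3, and Tpm1 lies below its mean in each vehicle and above it in each inotodiol library.

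Of the slow troponin genes, Tnnc1 was the 1 whose RefSeq start is preceded by 250 bases free of annotated exons; they lie on the plus strand at chr14:31208062-31208311 (GRCm38.p6, from RefSeq). The window is shown because the slow genes moved together among vehicle mice, with matches to E-box (CANNTG) and M-CAT (CATTCC) letters on either strand in capitals. These are letters that myogenic bHLH factors and TEAD factors are known to bind.
Tnnc1 upstream window: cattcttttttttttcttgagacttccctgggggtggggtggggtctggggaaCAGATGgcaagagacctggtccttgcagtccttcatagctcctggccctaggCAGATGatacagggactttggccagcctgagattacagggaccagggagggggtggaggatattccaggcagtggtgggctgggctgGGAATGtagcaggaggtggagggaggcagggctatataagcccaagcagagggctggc
It holds 2 E-boxes, beginning 197 and 145 bases before the start, and 1 M-CAT match 58 bases before it, and none of these matches overlap. Of 32851 windows of the same length in the table, 66.2% hold an E-box and 12.6% an M-CAT match. Upstream windows were found for 7 of the 9 genes; those of Tnnt1, Tnni1, Tnnc2, Tpm1 and Tpm2 and the first of 2 for Tpm3 hold annotated exon bases and are not printed, nor is the second Tpm3 window, which lies inside the gene. Of the other slow troponins, Tnnt1 has 1 E-box, and the overlapping windows of 2 Tnni1 starts have 4 and 2, with no M-CAT match in either gene. Tnnc2 has 2 E-boxes, Tpm1 has 1 E-box and 1 M-CAT match, and Tpm2 and each Tpm3 window have 1 E-box. A TATA match (TATAAA) was found for Tnnt1 alone, against 12.4% of all windows, and an NFAT core (GGAAAA) for Tpm1 alone, against 20.4%. Only these exact letters were sought, and the letters tatataa near the end of the Tnnc1 window do not match them. Matches to the MEF2 and CArG motifs, sought by name on both strands, were in none of the members' windows and in 0.508% and 1.47% of all windows.

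Among tropomyosins, Tpm1 (chromosome 9, 67022590 to 67049406) carried most of the counts. Its values were 16762 CPM, 19061 CPM and 19372 CPM in vehicle libraries 1 to 3 and 23774 CPM, 21776 CPM and 21620 CPM in inotodiol libraries 1 to 3. All 3 inotodiol mice lay above all 3 vehicle mice, with means of 18399 ± 1426 CPM and 22390 ± 1202 CPM (SD, n = 3). The fold was 1.22 (95% interval 1.05 to 1.42), a log2 fold change of 0.28 ± 0.10, with an unadjusted p of 0.015 and an adjusted p of 0.96 in edgeR. So the difference did not pass over all genes.

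The direction of Tpm1 was kept in all 15 alternatives, from 0.16 with library totals to 0.32 without vehicle replicate 3, and 12 of the 15 gave an unadjusted p under 0.05. Adjusted p ranged from 0.56 to 0.9997 over them. On library totals the groups overlapped: Tpm1 had 17759, 19104 and 20550 unscaled CPM in vehicle and 22013, 20225 and 22116 in inotodiol libraries, so inotodiol 2 fell below vehicle 3. Tpm1 is also made in smooth muscle, whose 8 markers summed to 157 to 200 unscaled CPM in vehicle and 160 to 179 in inotodiol libraries. Of the 6 smooth muscle markers tested, 3 lay above 0 and 3 below, from -0.29 to 0.30, with a median log2 fold change of -0.017. Hepatocyte transcripts moved with the groups: the 12 markers, none at 0 in all libraries, summed to 53.8 to 110 unscaled CPM in vehicle and 135 to 687 in inotodiol libraries. Their part in the Tpm1 result was not tested.

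Tpm2 (chromosome 4, 43514711 to 43523765) had 1134 CPM, 1422 CPM and 1046 CPM in vehicle libraries 1 to 3 and 1336 CPM, 1464 CPM and 1142 CPM in inotodiol libraries 1 to 3. The libraries numbered 2 were the highest of each group, as for Tnnc1, and the groups overlapped. Its log2 fold change was 0.13 ± 0.14 (95% interval -0.17 to 0.43). The size depended on single libraries: it was 0.040 without vehicle replicate 3, 0.046 without inotodiol replicate 2, 0.22 without inotodiol replicate 3 and 0.28 without vehicle replicate 2. On library totals it was 0.011.

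Tpm3 (chromosome 3, 90072649 to 90100902) had 329.6 CPM, 242 CPM and 185 CPM in vehicle libraries 1 to 3 and 214 CPM, 212 CPM and 216 CPM in inotodiol libraries 1 to 3. Vehicle 1 stood far above the rest, vehicle 3 lay lowest, and the 3 inotodiol mice were nearly equal. The log2 fold change was -0.24 ± 0.18 (95% interval -0.61 to 0.14), with an adjusted p of 0.96 in edgeR. This value rested on vehicle replicate 1: without it the log2 fold change was 0.0050. Tpm3 did not follow the slow troponins, whose highest vehicle library was vehicle 2. Counts per gene do not separate its 16 annotated transcripts, so this holds for the gene as a whole and not for a slow-fibre form alone.

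Judged by sequence shared with other transcripts in the direction of transcription, counts of Tpm3 are the least certain of the 9. Of its 2184 windows of 50 bases along the representative transcript, 62.4% occur unchanged in annotated transcripts of 5 other genes, Tpm3-rs7, Gm4157, Gm5996, Gm7839 and Gm7848, and how reads that match several places were counted is not given in the sources used here. No window of the other 8 genes occurred, in the direction of transcription, in another gene's annotated transcripts. Opposite strands were not searched, and there Tnnc2 shares 592 exon bases with Ube2c. Tpm1 and Tpm3 themselves are 76.3% identical in coding sequence, with a longest identical run of 21 bases. Their most similar 90 coding bases hold 11 differing bases, in capitals, and are given because the tropomyosin counts rest on such differences.
Tpm1, coding bases 274 to 363: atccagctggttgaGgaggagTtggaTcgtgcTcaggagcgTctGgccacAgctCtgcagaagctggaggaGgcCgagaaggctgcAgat
Tpm3, coding bases 277 to 366: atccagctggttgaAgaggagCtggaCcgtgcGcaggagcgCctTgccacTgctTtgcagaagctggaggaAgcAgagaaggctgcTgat

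As shares of all tropomyosin counts, Tpm1 took 92.0%, 92.0% and 94.0% in vehicle mice 1 to 3 and 93.9%, 92.9% and 94.1% in inotodiol mice 1 to 3. Tpm2 took 6.05 ± 0.91% in vehicle and 5.50 ± 0.66% in inotodiol libraries, and Tpm3 took 1.29 ± 0.47% and 0.90 ± 0.048% (SD, n = 3). These differences were within the spread between mice.

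Troponin I and troponin T genes lie in pairs in the genome. The fast pair, Tnni2 and Tnnt3, both among the highest genes per kilobase, lie 54.4 kb apart on chromosome 7, with the leukocyte gene Lsp1 between them at 148 to 417 counts per library. Slow Tnnt1 lies 1.92 kb from Tnni3, the cardiac troponin I gene, which had 2 counts in vehicle 3 and 0 in the other 5 libraries, where a count of 0 allows up to 3 counts. Slow Tnni1 lies 25.4 kb from Tnnt2, the cardiac and embryonic troponin T gene, which had 17 to 51 counts per library and stood at 0.61 ± 0.47 on the log2 fold scale. In between, Lad1 had 2 counts in all. Tnnc2 shares 592 exon bases with Ube2c on the opposite strand, and Ube2c had 5 to 32 counts per library.

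Other genes of the families were low. Tpm4, a tropomyosin of non-muscle cells, had 50.3 CPM, 46.96 CPM and 45.4 CPM in vehicle and 41.1 CPM, 38.4 CPM and 39.97 CPM in inotodiol libraries 1 to 3. All inotodiol values lay below all vehicle values, at a log2 fold change of -0.26 ± 0.15 (edgeR adjusted p 0.96). Of all genes, 10.4% had groups that did not overlap in either direction. Tnni3k, a kinase of heart muscle and not itself a troponin, had 5 counts in vehicle 1 and 0 elsewhere. Of the 9 cardiomyocyte markers, Nppb, Myl7 and Hcn4 were at 0 in all libraries, and the list summed to 57.8 to 104 unscaled CPM in vehicle and 66.4 to 75.4 in inotodiol libraries, most of it Myh6.

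The filament that carries the switch was measured through 25 genes of actin, nebulin, capping and Z-disc proteins. None was called; 15 lay above 0 and 10 below, with a median log2 fold change of 0.022, and 4 of 25 lay above 0 on library totals, with a median of -0.082. Acta1, the skeletal actin gene, stood at -0.01 ± 0.09. At an unadjusted p under 0.05, 3 genes lay lower and 0 higher, against 2.21% and 2.67% of all genes. These were Tmod3, which caps pointed filament ends, at -0.61 ± 0.23, and Capzb and Capza2, subunits of the barbed-end capping protein, at -0.37 ± 0.15 and -0.38 ± 0.15. The low values did not extend to the other genes of these families in the list. Tmod1 stood at 0.01 ± 0.14, Tmod4 at 0.02 ± 0.12 and Capza1 at 0.04 ± 0.42. Xirp2 stood at 0.24 ± 0.12, Pdlim3 at -0.19 ± 0.13 and Xirp1 at 0.36 ± 0.25.

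Genes of fast fibres other than troponin lay mostly on the same side as the fast members, with 15 of 16 above 0, a median of 0.099 and none called. Pfkm, the muscle phosphofructokinase gene, stood at 0.23 ± 0.12 and Myl1, a fast myosin light chain gene, at 0.18 ± 0.10, both with groups that did not overlap, as held for 10.4% of all genes in either direction and 5.15% with inotodiol higher. Myh2 stood at 0.17 ± 0.12, Pygm at 0.15 ± 0.13, Eno3 at 0.12 ± 0.11 and Mylk2 at 0.18 ± 0.18. On library totals 7 of 16 lay above 0 with a median of -0.020, where the median of all genes was -0.12. The side of 0 thus depended on the scaling, as for the fast troponins, of which 1 of 3 then lay above 0. Under both scalings the median of the fast-fibre list lay above that of all genes. The same held for the slow-fibre list, at 0.12 with TMM and 0.0083 on library totals, so this was not particular to fast fibres.

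Of 17 slow-fibre genes, 12 lay above 0 with a median of 0.12 (9 and 0.0083 on library totals), while the 3 slow troponins lay between -0.02 and 0.01 with TMM scaling. None was called, and 3 had an unadjusted p under 0.05, all higher, against 2.67% of all genes on that side. These were the stretch-responsive genes Csrp3 at 0.86 ± 0.30 and Ankrd2 at 0.63 ± 0.24, and Lmcd1 at 0.44 ± 0.17. All 3 were highest in inotodiol 3, where Csrp3 had 201 CPM against 57.6 to 84.3 CPM in the other 5 libraries. Myl2 stood at 0.38 ± 0.18, Sln, an inhibitor of the calcium pump, at -0.59 ± 0.29 and Mb, myoglobin, at 0.20 ± 0.11.

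Regulators of fibre type did not pass the test either. Of the 31 listed, 27 were tested, 16 lay above 0, and the median was 0.051 (11 and -0.072 on library totals). Rcan1, a target and inhibitor of calcineurin, the phosphatase of the slow programme, stood at 0.67 ± 0.20 with an adjusted p of 0.75 in edgeR, and had the 1 unadjusted p under 0.05. Its values were 81.9 CPM, 107 CPM and 81.1 CPM in vehicle and 107 CPM, 130.4 CPM and 193 CPM in inotodiol libraries 1 to 3, so the groups met between vehicle 2 and inotodiol 1. Nfatc1, which calcineurin activates, stood at -0.33 ± 0.19. It was the 1 of the 27 whose groups did not overlap, with inotodiol lower, against 10.4% of all genes in either direction. Myf6 stood at -0.30 ± 0.19, Vgll2 at 0.19 ± 0.13, Myog at 0.54 ± 0.39 and Esrrg at 0.28 ± 0.22.

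Splicing regulators bear on these genes because Tnnt3, Tnnt1 and the tropomyosins are alternatively spliced. All 12 listed were tested and none called, with 6 above 0 and a median of 0.0071 (0 and -0.10 on library totals). Celf2 stood at -0.29 ± 0.13 and was the 1 of the 12 with all inotodiol values below all vehicle values. Groups did not overlap for 10.4% of all genes in either direction. The myotonic dystrophy factors Mbnl1 and Mbnl2 stood at 0.09 ± 0.13 and 0.10 ± 0.12, Rbm24 at 0.11 ± 0.13, Rbfox1 at 0.06 ± 0.12 and Rbfox2 at -0.09 ± 0.20.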

How the data were processed

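RNA of gastrocnemius muscle from 6 mice was sequenced after library preparation with a Quant-Seq kit (Lexogen; 500 ng of total RNA), per the labels' protocols. The deposited values are raw read counts per gene symbol, 1 table per sample; Bowtie2, bedtools and the mm10 build are named in the submitters' processing notes. The sources used here do not give versions, settings, annotation, strand or the treatment of multiply matching reads. Genes were filtered with edgeR's filterByExpr (minimum count 10, minimum total 15), leaving 11700 of 23282 rows, of which 44 repeated a symbol. Counts were TMM-scaled and tested with edgeR 4.0.16 (R 4.3.3), quasi-likelihood, two-sided, group as the only term, Benjamini-Hochberg at 0.05; SE came from the fitted weights and moderated dispersion. Slow shares were given no test, since they are a score over members chosen with results known; an exact permutation test of 3 against 3 mice could not go below 0.10. DESeq2 1.42.0, limma-voom (limma 3.58.1), other scalings and filters, the replicate number as a block and single libraries left out were alternatives. The test was tried first on simulated data of 11700 genes, with 50 genes changed at each fold. It recovered 14% of the 1.5-fold, 52% of the 2-fold and 98% of the 4-fold changes, with 10 false calls. Coordinates, lengths and transcripts are from GENCODE M21, upstream windows from RefSeq, all GRCm38, the assembly of mm10; length is that of 1 representative transcript per gene. Members and lists were chosen with earlier results of these data known. From each list of muscle genes and regulators the up to 6 genes with the smallest p and a mean of at least 5 CPM were named, with Acta1, Myh7, Myl3, Casq2, Myoz2 and Atp2a2 named beyond this rule after their values were seen. P-values rest on the spread among 3 mice a group, with the dispersion of each gene moderated by that of the other genes.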

Additional observations from a re-analysis of the deposited data

How the results depend on the processing

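None of the 9 genes was called in any of the 15 alternatives, which include the run without Rn45s that was chosen after seeing the data. Over all genes, 95 were called with no filter on low counts, 1 with DESeq2, and 0 to 25 when 1 library at a time was left out, the 25 without inotodiol replicate 3. The replicate block left 0 genes called, with 605 at an unadjusted p under 0.05. Deviations of same-numbered mice correlated at -0.081, 0.11 and 0.022, and 2 of 6 samples correlated best with their own number. With 3 mice a group, these values cannot show whether same-numbered mice share anything beyond the number. Tnnt3, Tpm1 and Tpm2 kept their direction throughout. The signs of the slow troponins, all within 0.02 of 0, did not hold. Tnnt1 turned to 0.00023 with limma-voom, 0.042 without vehicle replicate 1, 0.099 without vehicle replicate 2 and 0.063 without inotodiol replicate 2. Tnni1 turned to -0.00070 with upper-quartile scaling, -0.0998 with library totals, -0.15 without vehicle replicate 3, -0.0047 without inotodiol replicate 1 and -0.0031 without inotodiol replicate 3. Tnnc1 turned to 0.0061 with limma-voom, 0.0048 with the replicate block, 0.15 without vehicle replicate 2, 0.011 without inotodiol replicate 1 and 0.085 without inotodiol replicate 3. With library totals Tnni2 turned to -0.051 and Tnnc2 to -0.098; Tnnc2 also turned to -0.026 without inotodiol replicate 2, and Tpm3 to 0.0050 without vehicle replicate 1. With 1 library at a time left out, Tnnt1 ranged from -0.18 to 0.099, Tnni1 from -0.15 to 0.19, Tnnc1 from -0.15 to 0.15, Tnnc2 from -0.026 to 0.056, Tpm3 from -0.42 to 0.0050, Tnnt3 from 0.13 to 0.32, Tnni2 from 0.041 to 0.10, Tpm1 from 0.22 to 0.32 and Tpm2 from 0.040 to 0.28. The cause was not tested. The slow share difference was -0.61 percentage points for Tnnt1 with Tnnt3 alone and -0.34 to 0.076 when 1 library at a time was left out.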
